A study of Danio rerio with 20 samples.

Results

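Unsorted caudal fin tissue of wildtype adult zebrafish was compared between 4 dpa (days post amputation), when the lost part is growing out, and 0 dpa, the uninjured fin. The comparison rested on 4 of the 20 RNA-seq libraries of the series, 2 at each time point, picked by genotype and time in their labels. The study asked how gene expression and its regulation change while a fin regenerates. It amputated the caudal fin midway along its length, sequenced polyA RNA of such fins from wildtype and fosl1a KO fish at 0, 1 and 4 dpa (12 libraries), and of sp7+ and sp7- cells sorted at 0 and 4 dpa from Tg(sp7:EGFP) fins, in which sp7 regulatory sequence drives EGFP (8 libraries). The wildtype group (labelled fosl1a WT) consisted of littermates of the mutants, from heterozygous parents of lines made by CRISPR-Cas9 in AB fish crossed with Tg(hsp70:zCas9; mylz:CFP), and the KO fish for RNA carried fosl1a tw1/tw1. No treatment other than amputation was given, and fins were neither dissociated nor sorted. The labels call the 0 dpa tissue fin and the 4 dpa tissue blastema, so the part of the fin that was sampled changed along with time. They do not say how many fins a library pooled. The p-values therefore measure a spread between libraries, which may be technical. That spread was estimated over all 12 unsorted libraries, those of KO fins and of 1 dpa included. A different share of a cell type cannot be told apart from a different amount of RNA per cell.

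A zebrafish fin regrows from the blastema, a mass of dividing mesenchymal cells under a thickened wound epidermis. Epidermal and mesenchymal signals (fibroblast growth factors, Wnts, Hedgehog, retinoic acid) keep the tip growing, while behind it osteoblasts lay down new bony rays and the fin fold is stiffened by actinotrichia, fibrils built from collagens and actinodins. The intact fin instead holds mature bone, a stratified epidermis rich in keratins, pigment cells, vessels and nerves wrapped by Schwann cells.

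The 4 libraries held between 20817289 and 31507208 counts. The unit of level is CPM, a count relative to the TMM-normalized library total. The 4 dpa replicates had a Pearson correlation of 0.988 over 16734 genes on the log2 scale, and the 0 dpa replicates one of 0.980, which describes genes within libraries and is no test. Some genes of outgrowing fins differed between the 0 dpa libraries. Among the 1349 genes called higher at 4 dpa (edgeR, tested against 2-fold, false discovery rate 0.05), 19 had over 4 times the level in 0 dpa replicate 1 as in 0 dpa replicate 2, at 1 CPM or more, and 0 lay the other way, while between the 4 dpa libraries the numbers were 2 and 0. Between the 0 dpa libraries the numbers were 5 and 4 among 964 genes called lower, and 31 and 34 among 17844 genes not called. In the 19 genes called higher, 0 dpa replicate 1 had a median of 5.64% of the mean 4 dpa level (range 0.596% to 13.2%). The actinodin gene and1 is an example, with 3032 and 3911 CPM at 4 dpa, against 162 and 11.8 CPM at 0 dpa. In the fosl1a KO libraries at 0 dpa it had 10.8 and 9.66 CPM. The source of these transcripts in 0 dpa replicate 1 was not tested, and results that rest on that library are given with and without it.

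**Figure D1:**
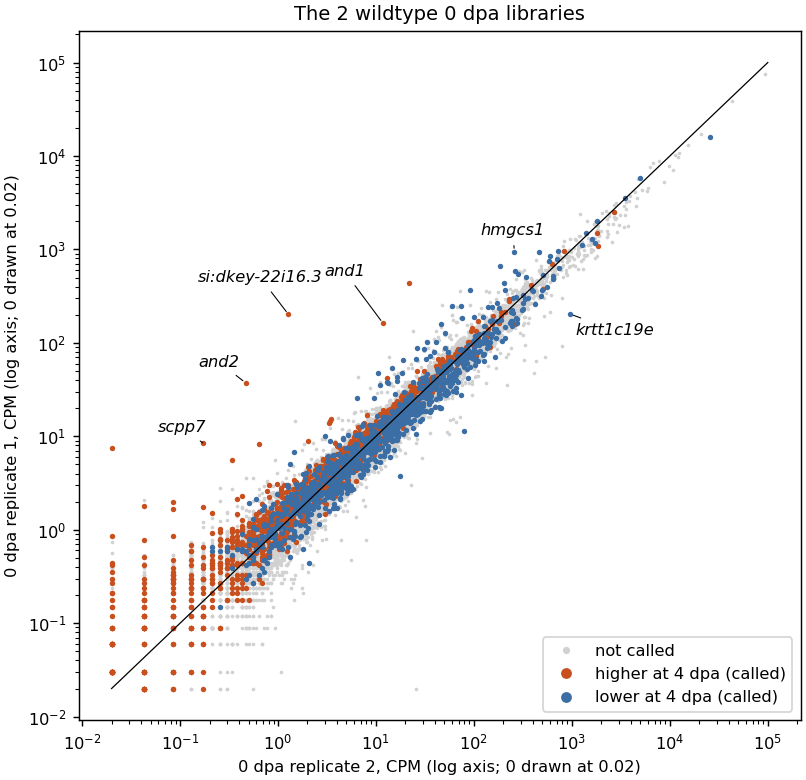
Level of each gene in 0 dpa replicate 1 (y axis) against 0 dpa replicate 2 (x axis) in wildtype fins, in CPM on log axes, 1 point a gene, coloured by its call at 4 against 0 dpa. Most points follow the line of equal levels, while and1, and2, si:dkey-22i16.3 and scpp7 lie far above it (201 against 1.28 CPM for si:dkey-22i16.3) and krtt1c19e below it.

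Many genes differed by more than 2-fold between the regenerating and the intact fin. Of 20157 genes tested, 1349 (6.69%) were higher and 964 (4.78%) lower at 4 dpa, 2313 (11.5%) in all, by the same test, and each adjusted p given for a change is from it. The median log2 fold change over all genes was -0.01, also when scaled by library totals alone. These shares are the background for each list of genes described here. Without 4 dpa replicate 2 the number of called genes was 1411, without 4 dpa replicate 1 it was 1534 and without 0 dpa replicate 2 it was 1442, while 1986 were called without 0 dpa replicate 1. In all 4 of these fits as well as in the full one 751 genes were called higher and 291 lower, and no gene was called in the opposite direction.

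Among the largest increases were genes of the outgrowing fin fold and its basement membrane. The largest by fitted value, ntrnl2, CU855711.2 and jac4, are given further below, without a role. The actinodin gene and2, which codes for an actinotrichia protein, had 976 and 1168 CPM at 4 dpa, against 37.2 and 0.469 CPM at 0 dpa (log2 fold change 5.82 ± 1.26 SE, adjusted p = 0.013). Both 4 dpa libraries were far above either 0 dpa library, but the 0 dpa libraries also differed from each other, and the log2 fold change was 11.11 without 0 dpa replicate 1 and 4.89 without 0 dpa replicate 2. Its relative and1 had a log2 fold change of 5.32 ± 0.91 (SE, adjusted p = 0.00347), with 8.16 without 0 dpa replicate 1 and 4.46 without 0 dpa replicate 2. A further actinodin gene, and3, had 4.02 and 3.86 CPM at 4 dpa, against 0.0595 and 0 CPM at 0 dpa, a ratio of 112 with a 95% counting interval of 30.6 to 933, since the 0 dpa libraries together held 2 counts. The gene si:dkey-22i16.3 (enam in the gene name table) had 5392 and 4165 CPM at 4 dpa, against 201 and 1.28 CPM at 0 dpa (log2 fold change 5.56 ± 1.53 SE, adjusted p = 0.0428). Enamelin is a protein of tooth enamel in mammals. The log2 fold change was 11.83 without 0 dpa replicate 1 and 4.61 without 0 dpa replicate 2, and the adjusted p was 0.105 without 4 dpa replicate 1 and 0.0899 without 4 dpa replicate 2. The basement membrane gene frem3, of the Fraser complex family, had 57 and 41.8 CPM at 4 dpa, against 0.952 and 0.341 CPM at 0 dpa (log2 fold change 6.17 ± 0.42 SE, adjusted p = 1.85e-05; 7.12 without 0 dpa replicate 1).

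Smaller in level but as large in change were genes for transport and enzymes. The citrate transporter gene slc13a5b had 13.7 and 13.2 CPM at 4 dpa, against 0.506 and 0.0426 CPM at 0 dpa (log2 fold change 5.43 ± 0.51 SE, adjusted p = 9.98e-05). TGM1, a transglutaminase that crosslinks proteins, had 9.44 and 9.72 CPM at 4 dpa, against 0.416 and 0.0426 CPM at 0 dpa (log2 fold change 5.2 ± 0.49 SE, adjusted p = 0.000106). Both had 0 dpa replicate 1 about 10 times above replicate 2, so that the log2 fold change of slc13a5b was 8.09 without 0 dpa replicate 1 and 4.75 without 0 dpa replicate 2, and that of TGM1 7.60 without 0 dpa replicate 1 and 4.55 without 0 dpa replicate 2. In 0 dpa replicate 2 each gene had 1 count, so that ratio and the values without replicate 1 are poorly bounded. The gamma-glutamyltransferase gene ggt1a had 10.3 and 5.85 CPM at 4 dpa, against 0.208 and 0.0852 CPM at 0 dpa (log2 fold change 5.64 ± 0.49 SE, adjusted p = 6.02e-05). Its log2 fold change was 6.44 without 0 dpa replicate 1, with 2 counts left at 0 dpa. No role is given here for ntrnl2, which was not counted in the 0 dpa libraries and had 5.82 and 11.5 CPM at 4 dpa, at least 172-fold higher against a floor of 3 counts over the 0 dpa libraries. That bound was between 70.6-fold (without 0 dpa replicate 1) and 219-fold (without 4 dpa replicate 1) with a library left out. Its adjusted p was 0.00794, but 0.056 without 0 dpa replicate 1. The rule that picked these genes also named CU855711.2 with a log2 fold change of 8.08, jac4 with 7.38, sb:cb1058 with 5.27 and cxl34c with 5.22. Levels of CU855711.2 were 489 and 220 CPM at 4 dpa, against 2.11 and 0.384 CPM at 0 dpa. Those of jac4 were 9.74 and 15.3 CPM at 4 dpa, against 0.0892 and 0.0426 CPM at 0 dpa, from 3 and 1 counts. The log2 fold change of CU855711.2 was 9.81 without 0 dpa replicate 1, 7.43 without 0 dpa replicate 2 and 7.44 without 4 dpa replicate 1. That of sb:cb1058 was 6.98 without 0 dpa replicate 1 and 4.62 without 0 dpa replicate 2, and that of cxl34c 8.02 without 0 dpa replicate 1 and 4.40 without 0 dpa replicate 2. The adjusted p of jac4 was 0.109 without 0 dpa replicate 1, 0.104 without 0 dpa replicate 2 and 0.0506 without 4 dpa replicate 2, and its log2 fold change 7.98 without 0 dpa replicate 1.

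**Figure D2:**
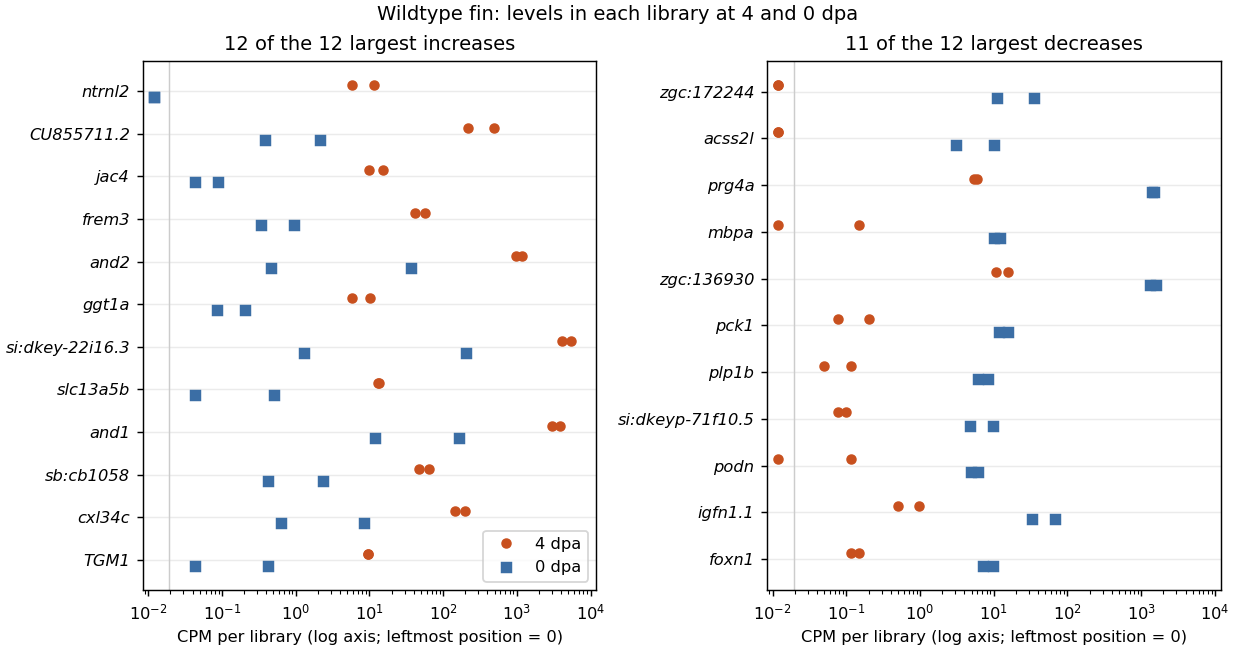
Level of the 12 genes with the largest called increases and of 11 of the 12 with the largest called decreases in each wildtype library, in CPM on a log axis (circles 4 dpa, squares 0 dpa, 2 libraries each, 0 drawn at the leftmost position). The circles of and2 lie near 1000 CPM with squares at 37.2 and 0.469 CPM, and those of prg4a below 6 CPM with squares above 1300 CPM.

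Among the largest decreases were a lubricating proteoglycan gene, myelin genes and metabolic genes, while the largest by fitted value was zgc:172244. The gene prg4a, for proteoglycan 4 (lubricin in mammals), had 5.47 and 5.97 CPM at 4 dpa, against 1497 and 1384 CPM at 0 dpa (log2 fold change -7.97 ± 0.31 SE, adjusted p = 7.42e-07). It had the smallest adjusted p of the genes described here, and its libraries hardly differed within a group. Transcripts of zgc:172244 (jac7 in the gene name table) were not counted at 4 dpa and had 35.2 and 11 CPM at 0 dpa, at least 384-fold lower at 4 dpa against a floor of 3 counts over the 4 dpa libraries. With a library left out that bound was 167-fold (without 0 dpa replicate 1), 535-fold (without 0 dpa replicate 2), 216-fold (without 4 dpa replicate 1) and 168-fold (without 4 dpa replicate 2). An acetyl-CoA synthetase gene, acss2l, was not counted at 4 dpa either, with 9.99 and 3.03 CPM at 0 dpa (at least 108-fold lower, adjusted p = 0.0216). Its bound was between 45.9-fold without 0 dpa replicate 1 and 152-fold without 0 dpa replicate 2. Its call was lost with an adjusted p of 0.094 without 0 dpa replicate 1, 0.101 without 4 dpa replicate 1 and 0.129 without 4 dpa replicate 2. The gluconeogenic enzyme gene pck1 had 0.201 and 0.0780 CPM at 4 dpa, against 15.4 and 11.9 CPM at 0 dpa (log2 fold change -6.63 ± 1.04 SE, adjusted p = 0.00226; -7.31 without 4 dpa replicate 1 and -6.0 without 4 dpa replicate 2). Transcripts of zgc:136930, for which no role is given here, had 15.5 and 10.7 CPM at 4 dpa, against 1303 and 1595 CPM at 0 dpa (log2 fold change -6.80 ± 0.62 SE, adjusted p = 6.02e-05).

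Among the other large decreases, the transcription factor gene foxn1, known in mammals from thymic epithelium and hair keratinocytes, had 0.151 and 0.117 CPM at 4 dpa, against 7.14 and 9.68 CPM at 0 dpa (log2 fold change -5.93 ± 0.51 SE, adjusted p = 5.98e-05). The small leucine-rich proteoglycan gene podn had 0 and 0.117 CPM at 4 dpa, against 4.85 and 6.10 CPM at 0 dpa, a ratio of 0 over 4 dpa of 81.4 with a 95% counting interval of 27.6 to 397. Its 4 dpa libraries together held 3 counts. The genes si:dkeyp-71f10.5 and igfn1.1 had log2 fold changes of -6.28 (-5.63 without 0 dpa replicate 2) and -6.12. The call of igfn1.1 did not hold without any 1 of the 4 libraries (adjusted p between 0.0566 and 0.203).

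Genes that drew most reads were collagens and keratins at both times. Counts are not per gene length, so they give no order of transcript levels between genes. At 4 dpa the genes with most counts were col1a1a, krt5, col1a1b, col1a2 and col10a1a, and at 0 dpa krt5, krt91, krt15, cyt1 and col1a1b. The type I collagen gene col1a1a had 54658 and 42318 CPM at 4 dpa, against 10741 and 12521 CPM at 0 dpa, and did not pass the test (log2 fold change 2.06 ± 0.67 SE, adjusted p = 0.165). The keratin gene krt5 had 39964 and 33978 CPM at 4 dpa, against 74971 and 94527 CPM at 0 dpa (log2 fold change -1.20 ± 0.32 SE, adjusted p = 0.423). Both genes had all 4 dpa libraries on one side of the 0 dpa libraries, but in the full fit the change was not shown to exceed 2-fold. By the same test col1a1a was called with no filter on low counts, from the 4 libraries alone and from the 6 wildtype libraries.

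Genes for mitosis rose together. Of 33 mitosis genes tested, 30 rose and 3 did not pass, with a median log2 fold change of 3.02 beside -0.01 over all genes. With a library left out 26 to 30 rose. Cyclin B1, the partner of the mitotic kinase, is coded by ccnb1, with 42.8 and 49.1 CPM at 4 dpa, against 3.66 and 2.0 CPM at 0 dpa (log2 fold change 4.00 ± 0.27 SE, adjusted p = 2.14e-05). Its kinase gene cdk1 had 48.8 and 47.3 CPM at 4 dpa, against 4.70 and 2.05 CPM at 0 dpa (log2 fold change 3.81 ± 0.30 SE, adjusted p = 4.47e-05). The activator of the anaphase-promoting complex, cdc20, had 27.2 and 28.2 CPM at 4 dpa, against 2.5 and 1.11 CPM at 0 dpa (log2 fold change 3.90 ± 0.28 SE, adjusted p = 3.35e-05). In each of these 3 genes the 4 dpa libraries were close to each other and over 10 times every 0 dpa library. The kinetochore motor gene cenpe had 38.2 and 38.6 CPM at 4 dpa, against 5.89 and 6.01 CPM at 0 dpa (log2 fold change 2.69 ± 0.24 SE, adjusted p = 0.000194). The largest change in the list was in birc5a (survivin, a subunit of the chromosomal passenger complex), with 13.3 and 14.2 CPM at 4 dpa, against 0.952 and 0.256 CPM at 0 dpa (log2 fold change 4.41 ± 0.39 SE, adjusted p = 7.77e-05). The proliferation marker gene mki67 had 99.1 and 113 CPM at 4 dpa, against 17.1 and 8.18 CPM at 0 dpa (log2 fold change 3.06 ± 0.31 SE, adjusted p = 0.000293), and top2a, which untangles chromosomes, had a log2 fold change of 3.02 ± 0.28 (SE, adjusted p = 0.000183). Without 0 dpa replicate 1, whose level was higher than that of replicate 2, the values of birc5a, cdk1, cdc20 and mki67 were 5.68, 4.52, 4.60 and 3.66. The condensin gene smc4 had 73.3 and 69.6 CPM at 4 dpa, against 26.4 and 27.2 CPM at 0 dpa, and did not pass (log2 fold change 1.42 ± 0.33 SE, adjusted p = 0.194).

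Among genes for DNA replication, a minority passed the test. Of 30 tested, 12 rose and 18 did not pass (median log2 fold change 1.25), with 7 called without 0 dpa replicate 2 and 7 without 4 dpa replicate 2. The largest called change was in gins3, a subunit of the replicative helicase, with 5.32 and 5.15 CPM at 4 dpa, against 1.04 and 1.36 CPM at 0 dpa (log2 fold change 2.13 ± 0.27 SE, adjusted p = 0.00301). The thymidylate synthase gene tyms had 42.5 and 46.8 CPM at 4 dpa, against 11.8 and 8.52 CPM at 0 dpa (log2 fold change 2.13 ± 0.21 SE, adjusted p = 0.000806). The sliding clamp gene PCNA had 237 and 268 CPM at 4 dpa, against 91.0 and 82.2 CPM at 0 dpa (log2 fold change 1.55 ± 0.18 SE, adjusted p = 0.0145), a call that was lost without 0 dpa replicate 2 (adjusted p = 0.0613) and without 4 dpa replicate 2 (adjusted p = 0.0701). The exonuclease gene exo1 had 4.32 and 6.01 CPM at 4 dpa, against 1.49 and 1.11 CPM at 0 dpa (log2 fold change 1.98 ± 0.27 SE, adjusted p = 0.00749, but 0.0598 without 4 dpa replicate 2). The helicase gene MCM7 had 476 and 278 CPM at 4 dpa, against 163 and 162 CPM at 0 dpa, without overlap, and did not pass (log2 fold change 1.21 ± 0.62 SE, adjusted p = 0.62). No test set the replication list against the mitosis list.

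**Figure D3:**
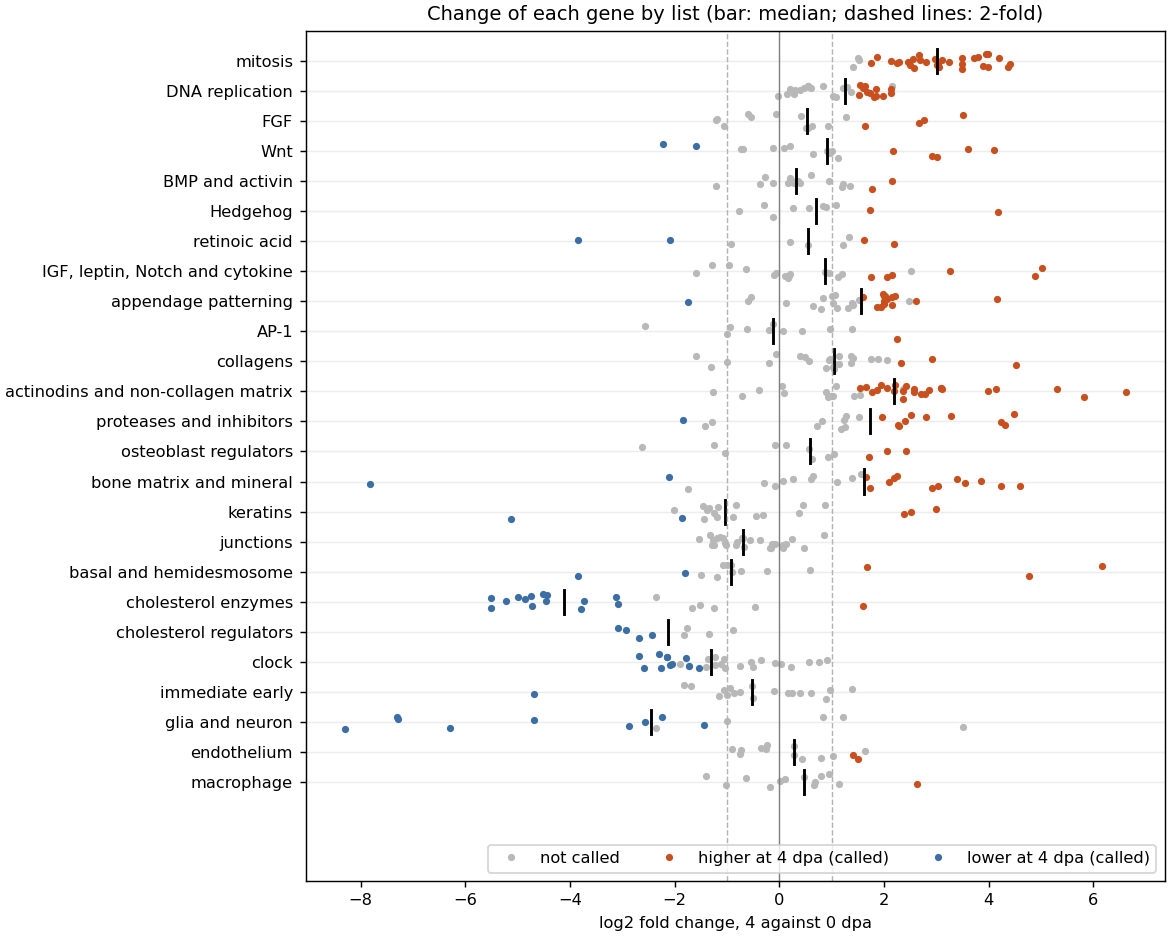
Log2 fold change at 4 against 0 dpa (x axis) of each tested member of 25 gene lists (rows), with the median of the list as a bar and 2-fold changes as dashed lines; colour shows the call. Mitosis genes all lie right of 1, and most cholesterol enzymes lie left of -3.

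Some genes of the FGF pathway rose. Among 16 FGF pathway genes, 4 rose and 12 did not pass (median 0.53). The ligand gene fgf20a, which zebrafish need to start fin regeneration, had 7.28 and 5.23 CPM at 4 dpa, against 0.714 and 1.151 CPM at 0 dpa (log2 fold change 2.77 ± 0.28 SE, adjusted p = 0.000422). FGF3, another ligand, had 16.2 and 11.2 CPM at 4 dpa, against 1.55 and 0.767 CPM at 0 dpa (log2 fold change 3.52 ± 0.33 SE, adjusted p = 0.000157; 4.12 without 0 dpa replicate 1). Both ligands were low in counts but without overlap between the times. The FGF-responsive transcription factor gene etv4 had 109 and 105 CPM at 4 dpa, against 16.4 and 17.1 CPM at 0 dpa (log2 fold change 2.68 ± 0.19 SE, adjusted p = 5.38e-05), and etv5b had 37.1 and 39.8 CPM at 4 dpa, against 11.8 and 12.9 CPM at 0 dpa (log2 fold change 1.64 ± 0.21 SE, adjusted p = 0.0156). The call of etv5b was lost without 0 dpa replicate 1 (adjusted p = 0.0784) and without 4 dpa replicate 2 (adjusted p = 0.057). The receptor gene fgfr2 had 75.0 and 89.4 CPM at 4 dpa and 113 and 135 CPM at 0 dpa, and the feedback inhibitor gene dusp6 125 and 133 CPM at 4 dpa and 67.5 and 108 CPM at 0 dpa, and neither passed (log2 fold changes -0.60 and 0.56).

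In the Wnt list, 5 of 17 genes rose and 2 fell (median 0.92), and 3 rose without 0 dpa replicate 1, 0 dpa replicate 2 or 4 dpa replicate 1. The ligand gene wnt5a had 186 and 117 CPM at 4 dpa, against 16.6 and 21.1 CPM at 0 dpa (log2 fold change 3.01 ± 0.58 SE, adjusted p = 0.0137). Its 4 dpa replicates differed, and the adjusted p was 0.111 without 0 dpa replicate 1, 0.0695 without 0 dpa replicate 2 and 0.0722 without 4 dpa replicate 1. The nuclear effector gene lef1 had 80.3 and 77.1 CPM at 4 dpa, against 12.6 and 8.10 CPM at 0 dpa (log2 fold change 2.92 ± 0.24 SE, adjusted p = 9.83e-05). The inhibitor gene dkk1b had 5.77 and 5.0 CPM at 4 dpa, against 0.446 and 0.426 CPM at 0 dpa (log2 fold change 3.60 ± 0.38 SE, adjusted p = 0.000322), and the target gene sp5a had 2.21 and 2.11 CPM at 4 dpa, against 0.178 and 0.0426 CPM at 0 dpa (log2 fold change 4.1 ± 0.54 SE, adjusted p = 0.00118; 5.45 without 0 dpa replicate 1, which left next to no counts at 0 dpa). The fifth gene that rose was tcf7, an effector that is also a T cell gene, with a log2 fold change of 2.17 (adjusted p = 0.0122). The call was lost with an adjusted p of 0.0802 without 0 dpa replicate 1, 0.0633 without 0 dpa replicate 2 and 0.0743 without 4 dpa replicate 1. In the other direction, the ligand gene wnt11r fell to 11.8 and 19.1 CPM at 4 dpa, against 66.7 and 78.9 CPM at 0 dpa (log2 fold change -2.23 ± 0.24 SE, adjusted p = 0.000952). WNT3A had 2.86 and 2.61 CPM at 4 dpa, against 9.22 and 7.16 CPM at 0 dpa (adjusted p = 0.0448, and 0.0507 to 0.216 with a library left out). The target gene AXIN2 had 39.6 and 39.0 CPM at 4 dpa and 36.1 and 37.9 CPM at 0 dpa, and did not pass.

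Ligand genes of other pathways are given next. Sonic hedgehog, which patterns the new rays, is coded by shha, with 8.58 and 7.96 CPM at 4 dpa, against 0.773 and 0.0426 CPM at 0 dpa (log2 fold change 4.17 ± 0.56 SE, adjusted p = 0.00151; 7.39 without 0 dpa replicate 1, which left next to no counts at 0 dpa, and 3.45 without 0 dpa replicate 2). It was one of 2 called members among 10 Hedgehog genes (median 0.70), and 1 was called without 0 dpa replicate 2. In the BMP and activin list 2 of 18 rose (median 0.31). One was bmp1a, which codes for a procollagen-processing protease, with 241 and 251 CPM at 4 dpa, against 57.2 and 52.9 CPM at 0 dpa (log2 fold change 2.16 ± 0.21 SE, adjusted p = 0.000538). The other was the BMP antagonist gene nog1, with 16.8 and 11.4 CPM at 4 dpa, against 3.0 and 5.33 CPM at 0 dpa (log2 fold change 1.77 ± 0.31 SE, adjusted p = 0.0339), a call lost without 0 dpa replicate 1 (adjusted p = 0.255) or 4 dpa replicate 1 (0.185).

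The leptin gene lepb, known as a regeneration-responsive gene in zebrafish, had 31.7 and 29.1 CPM at 4 dpa, against 1.52 and 0.213 CPM at 0 dpa (log2 fold change 5.02 ± 0.51 SE, adjusted p = 0.000235; 7.08 without 0 dpa replicate 1 and 4.36 without 0 dpa replicate 2). The cytokine gene il11a had 6.93 and 5.70 CPM at 4 dpa, against 0.297 and 0.0852 CPM at 0 dpa (log2 fold change 4.89 ± 0.36 SE, adjusted p = 3.48e-05), and 6.08 without 0 dpa replicate 1, which left few counts at 0 dpa. The heparin-binding growth factor gene mdka had 1167 and 1182 CPM at 4 dpa, against 112 and 133 CPM at 0 dpa (log2 fold change 3.26 ± 0.23 SE, adjusted p = 3.53e-05), with replicates that lay close together. These were 3 of 6 genes that rose among 21 of the IGF, leptin, Notch and cytokine list. The others were her6 and LFNG of the Notch pathway and the ligand gene igf2b, with log2 fold changes of 2.15, 1.75 and 2.05. The call of LFNG was lost without 4 dpa replicate 1 (adjusted p = 0.0612). The Notch ligand gene jag1b had 77.3 and 60.2 CPM at 4 dpa, against 142 and 127 CPM at 0 dpa, and did not pass.

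In the retinoic acid list of 9 genes, 2 rose and 2 fell. The degrading enzyme gene CYP26C1 had 20 and 27.3 CPM at 4 dpa, against 4.31 and 6.10 CPM at 0 dpa (log2 fold change 2.19 ± 0.25 SE, adjusted p = 0.00139), and the binding protein gene crabp2b had a log2 fold change of 1.62 ± 0.20 (SE, adjusted p = 0.0139, but 0.0706 without 0 dpa replicate 2 and 0.0587 without 4 dpa replicate 2). The retinol transport gene rbp4 had 47.7 and 56.2 CPM at 4 dpa, against 781 and 712 CPM at 0 dpa (log2 fold change -3.84 ± 0.23 SE, adjusted p = 1.76e-05), with the 4 dpa libraries over 10 times below the 0 dpa libraries. The receptor gene raraa had 0.803 and 1.17 CPM at 4 dpa, against 4.43 and 4.05 CPM at 0 dpa (adjusted p = 0.0228, and between 0.0682 and 0.16 with a library left out).

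Many transcription factor genes of fin and limb patterning rose. Of 30 tested, 14 rose and 1 fell (median 1.56, 12 to 13 higher with a library left out). The homeobox gene msx1b, a blastema marker, had 170.2 and 165 CPM at 4 dpa, against 33.9 and 38.2 CPM at 0 dpa (log2 fold change 2.22 ± 0.18 SE, adjusted p = 0.000171). Its paralog msx1a had 14.9 and 8.55 CPM at 4 dpa, against 0.684 and 0.597 CPM at 0 dpa (log2 fold change 4.16 ± 0.32 SE, adjusted p = 4.04e-05), and msx3 had 134 and 147 CPM at 4 dpa, against 36.8 and 33.5 CPM at 0 dpa (log2 fold change 2.0 ± 0.16 SE, adjusted p = 0.000228). The distal-less gene dlx5a had 94.3 and 92.0 CPM at 4 dpa, against 18.9 and 26.1 CPM at 0 dpa (log2 fold change 2.05 ± 0.21 SE, adjusted p = 0.0011). Of the posterior Hox genes, hoxa13a had 62.2 and 70.17 CPM at 4 dpa, against 16.2 and 16.9 CPM at 0 dpa (log2 fold change 2.0 ± 0.20 SE, adjusted p = 0.00098), and hoxc13a had 64.5 and 72.0 CPM at 4 dpa, against 43.9 and 42.9 CPM at 0 dpa, without overlap, and did not pass (log2 fold change 0.65 ± 0.16 SE, adjusted p = 1). Their difference was not tested. The gene that fell, meis1a, a proximal limb factor in tetrapods, had 2.81 and 2.26 CPM at 4 dpa, against 8.33 and 8.70 CPM at 0 dpa (adjusted p = 0.0342, and between 0.074 and 0.224 with a library left out).

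AP-1 genes, which code for dimeric transcription factors of the Fos and Jun families, mostly did not pass the test. Of 11 tested, 1 was called, FOSL2, with 180.3 and 185 CPM at 4 dpa, against 50.4 and 26.0 CPM at 0 dpa (log2 fold change 2.26 ± 0.29 SE, adjusted p = 0.00288). The gene targeted in the KO fish, fosl1a, had 2.31 and 3.40 CPM at 4 dpa, against 2.71 and 3.96 CPM at 0 dpa in wildtype fins (log2 fold change -0.20 ± 0.28 SE, adjusted p = 1), with overlapping groups. At 1 dpa its wildtype levels were 119 and 140.2 CPM. The jun gene had 360.2 and 319 CPM at 4 dpa, against 507 and 806 CPM at 0 dpa, and junba 779 and 579.5 CPM at 4 dpa, against 162 and 359 CPM at 0 dpa, without overlap and without passing the test (log2 fold changes -0.95 and 1.38).

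Extracellular matrix genes outside the collagens rose in large part. Of 37 tested, 24 rose and 13 did not pass (median 2.2, and 2.01 to 2.31 with a library left out). A negative log2 fold change was found in 3 of the 37, down to -1.26. Tenascin C, a provisional matrix protein of blastemas, is coded by tnc, with 464 and 505 CPM at 4 dpa, against 41.7 and 13.0 CPM at 0 dpa (log2 fold change 4.14 ± 0.47 SE, adjusted p = 0.000381; 5.18 without 0 dpa replicate 1). Fibronectin gene fn1b had 2050.0 and 2075 CPM at 4 dpa, against 416 and 381 CPM at 0 dpa (log2 fold change 2.37 ± 0.25 SE, adjusted p = 0.000704), and sparc, for osteonectin, had 5002 and 5517 CPM at 4 dpa, against 1511 and 1807 CPM at 0 dpa (log2 fold change 1.66 ± 0.20 SE, adjusted p = 0.00846; adjusted p = 0.067 without 0 dpa replicate 1). The proteoglycan gene vcana (versican) had 91.9 and 99.0 CPM at 4 dpa, against 7.94 and 4.05 CPM at 0 dpa (log2 fold change 3.98 ± 0.33 SE, adjusted p = 5.55e-05).

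Among the 24 genes of that list that rose were 5 whose products modify collagen or serve as its chaperones. They were picked out after their values were seen. The lysyl hydroxylase gene plod1a had 138 and 130.5 CPM at 4 dpa, against 19.2 and 17.6 CPM at 0 dpa (log2 fold change 2.87 ± 0.19 SE, adjusted p = 3.58e-05), the prolyl hydroxylase gene p4ha1b had 24.6 and 30.8 CPM at 4 dpa, against 4.97 and 3.03 CPM at 0 dpa (log2 fold change 2.78 ± 0.24 SE, adjusted p = 0.000164), and the crosslinking oxidase gene loxl2b had 229 and 290.1 CPM at 4 dpa, against 41.1 and 46.5 CPM at 0 dpa (log2 fold change 2.57 ± 0.20 SE, adjusted p = 0.000101). The collagen chaperone gene serpinh1a had 375 and 462 CPM at 4 dpa, against 76.9 and 63.6 CPM at 0 dpa (log2 fold change 2.58 ± 0.20 SE, adjusted p = 9.35e-05), and serpinh1b had 509 and 572 CPM at 4 dpa, against 151 and 131 CPM at 0 dpa (log2 fold change 1.94 ± 0.19 SE, adjusted p = 0.000983). In all 5 genes the groups lay further apart than their replicates, which adds no support, since they were picked among called genes. The link protein gene hapln1a, with 231 and 306 CPM at 4 dpa and 372 and 332 CPM at 0 dpa, did not pass.

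Most collagen genes had a positive change, but few passed the test. Of 25 tested, 3 rose (12%, beside 6.69% of all genes) and 22 did not pass, with a median log2 fold change of 1.04. A positive log2 fold change was found in 20 of the 25. Summed over the list, levels were 155403 and 116397 CPM at 4 dpa, against 43101.5 and 50527.5 CPM at 0 dpa. The largest called change was in col9a1a, with 10 and 3.40 CPM at 4 dpa, against 0.178 and 0.426 CPM at 0 dpa (log2 fold change 4.52 ± 0.72 SE, adjusted p = 0.00316; 3.92 without 0 dpa replicate 1, 5.22 without 0 dpa replicate 2, 3.59 without 4 dpa replicate 1 and 5.16 without 4 dpa replicate 2). The hypertrophic cartilage and osteoblast collagen gene col10a1a had 23337 and 16209 CPM at 4 dpa, against 2495 and 2699 CPM at 0 dpa (log2 fold change 2.93 ± 0.57 SE, adjusted p = 0.0146), and col11a1b had 1589 and 1024 CPM at 4 dpa, against 292 and 229.6 CPM at 0 dpa (log2 fold change 2.32 ± 0.54 SE, adjusted p = 0.0445). With 0 dpa replicate 1, 0 dpa replicate 2 or 4 dpa replicate 1 left out 1 collagen gene was called higher, and without 0 dpa replicate 1 another 1 was called lower. The last calls were lost with a library left out: for col10a1a the adjusted p was 0.102 without 0 dpa replicate 1, 0.0823 without 0 dpa replicate 2 and 0.0665 without 4 dpa replicate 1, and for col11a1b it was 0.0619 to 0.218 over the 4 libraries. Type I collagen gene col1a2 had 27112 and 18469.8 CPM at 4 dpa, against 9826 and 12032 CPM at 0 dpa, without overlap, and did not pass (log2 fold change 1.06 ± 0.67 SE, adjusted p = 0.792). The type IV collagen gene COL4A1, of basement membranes, had 64.9 and 58.9 CPM at 4 dpa, against 132 and 176 CPM at 0 dpa and did not pass (log2 fold change -1.31 ± 0.28 SE, adjusted p = 0.235).

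Several genes for proteases that remodel matrix rose. Of 20 genes for proteases and inhibitors, 10 rose and 1 fell (median 1.74). The collagenase gene mmp13a had 38.5 and 52.1 CPM at 4 dpa, against 2.47 and 1.53 CPM at 0 dpa (log2 fold change 4.48 ± 0.34 SE, adjusted p = 3.49e-05), and mmp13b had 47.9 and 56.5 CPM at 4 dpa, against 3.33 and 1.83 CPM at 0 dpa (log2 fold change 4.31 ± 0.28 SE, adjusted p = 1.85e-05). The membrane-bound metalloproteinase gene mmp14b had 436 and 497 CPM at 4 dpa, against 95.1 and 97.8 CPM at 0 dpa (log2 fold change 2.27 ± 0.18 SE, adjusted p = 0.000134). The disintegrin protease gene adam8a had 186 and 172 CPM at 4 dpa, against 15.4 and 3.50 CPM at 0 dpa (log2 fold change 4.23 ± 0.55 SE, adjusted p = 0.000794; 5.64 without 0 dpa replicate 1 and 3.58 without 0 dpa replicate 2). The gelatinase genes MMP2 and mmp9 had log2 fold changes of 1.25 and 1.18, and did not pass, although their groups did not overlap. The decrease was in plaub, a urokinase-type plasminogen activator gene, with 10.1 and 12.7 CPM at 4 dpa, against 31.4 and 50.6 CPM at 0 dpa (log2 fold change -1.84 ± 0.27 SE, adjusted p = 0.0134; adjusted p = 0.179 without 0 dpa replicate 2 and 0.116 without 4 dpa replicate 1).

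Genes of the bone matrix rose in part. Of 24 bone matrix and mineral genes, 12 rose and 2 fell (median 1.61, 8 to 10 called higher with a library left out). Osteoglycin, a small leucine-rich proteoglycan, is coded by ogn, with 332 and 325 CPM at 4 dpa, against 27.4 and 28.5 CPM at 0 dpa (log2 fold change 3.55 ± 0.18 SE, adjusted p = 8.01e-06). The osteoblast membrane gene ifitm5 had 329.9 and 329.6 CPM at 4 dpa, against 34.4 and 46.1 CPM at 0 dpa (log2 fold change 3.03 ± 0.28 SE, adjusted p = 0.000183), and the channel gene panx3 had 86.9 and 94.5 CPM at 4 dpa, against 11.1 and 6.10 CPM at 0 dpa (log2 fold change 3.39 ± 0.41 SE, adjusted p = 0.000749). The mineralization gene entpd5a had 120.3 and 145 CPM at 4 dpa, against 27.0 and 28.7 CPM at 0 dpa (log2 fold change 2.25 ± 0.16 SE, adjusted p = 8.89e-05). These 4 genes kept their calls with any 1 of the wildtype libraries of the comparison left out.

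The secretory calcium-binding phosphoprotein genes, whose products form fish scales, teeth and fin rays, had uneven 0 dpa libraries. The gene scpp7 had 91.5 and 78.1 CPM at 4 dpa, against 8.51 and 0.170 CPM at 0 dpa (log2 fold change 4.24 ± 0.92 SE, adjusted p = 0.0158). Its relative scpp5 had 51.9 and 61.5 CPM at 4 dpa, against 7.50 and 0 CPM at 0 dpa (log2 fold change 3.86 ± 0.92 SE, adjusted p = 0.0283), and scpp6 had 11 and 12.7 CPM at 4 dpa, against 0.863 and 0 CPM at 0 dpa (log2 fold change 4.61 ± 0.69 SE, adjusted p = 0.00258). All of the 0 dpa counts of scpp5 and scpp6 came from replicate 1, so that no fold is given without it. Without 0 dpa replicate 2 their log2 fold changes were 2.96 and 3.81, while scpp7 had 8.88 without 0 dpa replicate 1 and 3.36 without 0 dpa replicate 2. The adjusted p of scpp5 was 0.0684 without 4 dpa replicate 1 and 0.092 without 4 dpa replicate 2, and that of scpp7 0.0526 without 4 dpa replicate 1.

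The genes of the bone matrix list that fell were bglap and fgf23. With 0 dpa replicate 1 left out edgeR called 3 genes of that list lower, and without 4 dpa replicate 1 it called 1. It called 0 lower without 0 dpa replicate 2 and without 4 dpa replicate 2, with 16 and 15 of the 24 genes at an unadjusted p below 0.05 in either direction. Osteocalcin is coded by bglap, with 12.6 and 4.76 CPM at 4 dpa, against 34 and 39.8 CPM at 0 dpa (log2 fold change -2.10 ± 0.39 SE, adjusted p = 0.0218). The adjusted p was 0.105 without 0 dpa replicate 2 and 0.185 without 4 dpa replicate 2, and the log2 fold change -2.90 without 4 dpa replicate 1 and -1.49 without 4 dpa replicate 2. The phosphate hormone gene fgf23, made by osteocytes in mammals, was not counted at 4 dpa and had 0.446 and 2.09 CPM at 0 dpa, at least 17.0-fold lower. That bound was 6.77-fold without 0 dpa replicate 2 and 31.7-fold without 0 dpa replicate 1. Its adjusted p was 0.0431, but 0.15 without 0 dpa replicate 2, 0.135 without 4 dpa replicate 1 and 0.178 without 4 dpa replicate 2. Among 12 osteoblast regulators 3 rose, against 2 called higher without 0 dpa replicate 2 or either 4 dpa library. EdgeR called 0 of them without 0 dpa replicate 1, with 4 at an unadjusted p below 0.05. The osteoblast transcription factor gene sp7 had 42.4 and 47.3 CPM at 4 dpa, against 9.28 and 12.4 CPM at 0 dpa (log2 fold change 2.05 ± 0.37 SE, adjusted p = 0.0203; 0.136 without 0 dpa replicate 1 and 0.0718 without 4 dpa replicate 2), whereas runx2b, which acts upstream of it in osteoblast formation, had 18.5 and 15.06 CPM at 4 dpa, against 41.5 and 38.0 CPM at 0 dpa, and did not pass (log2 fold change -1.25 ± 0.17 SE, adjusted p = 0.156). Over the 12 regulators the median was 0.59, and 4 had a negative log2 fold change, down to -2.63, with 0 called lower in the full fit. The others that rose, runx1 and twist3, had log2 fold changes of 2.42 and 1.71. The adjusted p of runx1 was 0.156 without 0 dpa replicate 1, 0.13 without 0 dpa replicate 2 and 0.146 without 4 dpa replicate 1, and that of twist3 0.0757 without 0 dpa replicate 1. Of 5 osteoclast genes, CTSK, the collagen-degrading cathepsin K, had 506 and 589.7 CPM at 4 dpa, against 142 and 140.0 CPM at 0 dpa (log2 fold change 1.96 ± 0.18 SE, adjusted p = 0.000624), and ocstamp, for cell fusion, had 1.05 and 1.99 CPM at 4 dpa, against 0.178 and 0 CPM at 0 dpa (log2 fold change 3.84 ± 0.72 SE, adjusted p = 0.00965). For ocstamp the adjusted p was 0.0745 without 4 dpa replicate 2, and its log2 fold change 3.11 without 0 dpa replicate 2. Without 0 dpa replicate 1 no 0 dpa count of it remained, so no fold is given.

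Among epidermal genes, single keratins changed in both directions. Of 20 keratin genes, 3 rose and 2 fell (median -1.03). The gene krt94 had 12283 and 11181 CPM at 4 dpa, against 1099 and 1845 CPM at 0 dpa (log2 fold change 2.99 ± 0.31 SE, adjusted p = 0.00037), krt93 had 1411 and 985 CPM at 4 dpa, against 160.4 and 259.9 CPM at 0 dpa (log2 fold change 2.51 ± 0.31 SE, adjusted p = 0.0015), and krt18, of simple epithelia, had 2334 and 2268 CPM at 4 dpa, against 375 and 509 CPM at 0 dpa (log2 fold change 2.38 ± 0.26 SE, adjusted p = 0.000836). On the other side, krtt1c19e, a gene of basal keratinocytes, had 13.1 and 19.8 CPM at 4 dpa, against 204 and 954 CPM at 0 dpa (log2 fold change -5.13 ± 0.89 SE, adjusted p = 0.00402). Its 0 dpa libraries differed several-fold, and its log2 fold change was -5.89 without 0 dpa replicate 1 and -3.59 without 0 dpa replicate 2. The gene krt15 had 5694 and 5901 CPM at 4 dpa, against 16151 and 25685 CPM at 0 dpa (log2 fold change -1.85 ± 0.33 SE, adjusted p = 0.0299), but the adjusted p was 0.269 without 0 dpa replicate 2, 0.138 without 4 dpa replicate 1 and 0.131 without 4 dpa replicate 2. Keratin genes lie in families of similar sequence, so counts of single members are uncertain. Summed over the 20 genes, keratins had 101744 and 92499 CPM at 4 dpa, against 171487 and 213527 CPM at 0 dpa.

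Of 27 genes for epithelial junctions, edgeR called 0 in either direction. Of these, 5 had an unadjusted p below 0.05 in the test against 2-fold, and DESeq2 called 0. Their median log2 fold change was -0.69. The claudin gene cldnb had 554 and 533 CPM at 4 dpa and 540.2 and 663 CPM at 0 dpa, with overlapping groups, and the desmoplakin gene dspa had 1017 and 852 CPM at 4 dpa and 1245 and 831 CPM at 0 dpa. The claudin gene cldne had 108 and 124 CPM at 4 dpa, against 186 and 282 CPM at 0 dpa (log2 fold change -1.02 ± 0.21 SE, adjusted p = 0.699), without overlap. A p that misses the threshold does not show that such genes stayed the same.

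Basement membrane and hemidesmosome genes of the epidermis moved in both directions. In a list of 14 basal epidermis and hemidesmosome genes, 3 rose and 2 fell. The median was -0.91, with 10 negative and 4 positive log2 fold changes. Besides frem3, the Fraser complex genes frem2a and fras1 rose, with 49.0 and 56.1 CPM at 4 dpa, against 2.68 and 1.07 CPM at 0 dpa for frem2a (log2 fold change 4.77 ± 0.41 SE, adjusted p = 5.38e-05; 5.58 without 0 dpa replicate 1) and a log2 fold change of 1.68 ± 0.22 for fras1 (SE, adjusted p = 0.0122, but 0.0807 without 0 dpa replicate 1 and 0.0552 without 4 dpa replicate 1). The hemidesmosome collagen gene col17a1a had 111 and 89.6 CPM at 4 dpa, against 1176 and 1703 CPM at 0 dpa (log2 fold change -3.85 ± 0.58 SE, adjusted p = 0.00228), whereas its paralog col17a1b had 1766 and 1264 CPM at 4 dpa and 1573 and 1978 CPM at 0 dpa, with overlapping groups. The integrin gene ITGB4, a partner of that collagen in hemidesmosomes, had 221 and 191 CPM at 4 dpa, against 846 and 597 CPM at 0 dpa (log2 fold change -1.81 ± 0.31 SE, adjusted p = 0.0265), but the adjusted p was 0.135 without 0 dpa replicate 1, 0.0892 without 4 dpa replicate 1 and 0.171 without 4 dpa replicate 2.

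Genes for cholesterol synthesis had the lowest median of the 37 lists. Of 20 enzyme genes, 14 fell and 1 rose, with a median log2 fold change of -4.12. The early enzyme gene hmgcs1 had 24.1 and 21.5 CPM at 4 dpa, against 942 and 259 CPM at 0 dpa (log2 fold change -4.72 ± 0.77 SE, adjusted p = 0.00295), and the rate-limiting reductase gene hmgcra had 2.21 and 2.30 CPM at 4 dpa, against 159 and 46.0 CPM at 0 dpa (log2 fold change -5.50 ± 0.86 SE, adjusted p = 0.00214). Squalene epoxidase gene sqlea had 5.12 and 2.03 CPM at 4 dpa, against 248 and 73.4 CPM at 0 dpa (log2 fold change -5.51 ± 0.83 SE, adjusted p = 0.00163). Further down the pathway, cyp51, the lanosterol demethylase, had 12.5 and 13.5 CPM at 4 dpa, against 548 and 285 CPM at 0 dpa (log2 fold change -5.0 ± 0.71 SE, adjusted p = 0.00117). In these 4 genes every 4 dpa library was at least 10 times below every 0 dpa library. The 0 dpa libraries also differed: summed over the list, they had 4664 CPM in replicate 1 and 1593 CPM in replicate 2, while the 4 dpa libraries had 232 and 209.8 CPM. Without 0 dpa replicate 1, 8 of the enzymes were called lower and the median was -3.18. Without 0 dpa replicate 2, 4 dpa replicate 1 and 4 dpa replicate 2 the counts were 16, 8 and 7. The log2 fold change of hmgcs1 was -3.54 without 0 dpa replicate 1 and -5.33 without 0 dpa replicate 2, that of hmgcra -4.38 without 0 dpa replicate 1 and -6.10 without 0 dpa replicate 2 and that of sqlea -4.41 without 0 dpa replicate 1, -6.26 without 4 dpa replicate 1 and -4.92 without 4 dpa replicate 2. The calls of these 4 enzymes held in each case.

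Genes that regulate the pathway fell in part. Of 8 genes of regulation and uptake, 4 fell (median -2.13), against 2 without either 4 dpa library. The sterol-responsive transcription factor gene srebf2 had 137 and 85.6 CPM at 4 dpa, against 965 and 722 CPM at 0 dpa (log2 fold change -2.92 ± 0.37 SE, adjusted p = 0.00124), and its escort gene SCAP had 9.89 and 6.13 CPM at 4 dpa, against 80.6 and 54.9 CPM at 0 dpa (log2 fold change -3.09 ± 0.40 SE, adjusted p = 0.00143). The 0 dpa libraries of srebf2 differed less than those of the enzymes. The related factor gene srebf1 had a log2 fold change of -2.68, with an adjusted p of 0.0728 without 0 dpa replicate 2, 0.0658 without 4 dpa replicate 1 and 0.135 without 4 dpa replicate 2. The enzyme-list gene that rose was lbr, a lamin B receptor with sterol reductase activity, with 33.9 and 32.1 CPM at 4 dpa, against 11.4 and 10.2 CPM at 0 dpa (log2 fold change 1.61 ± 0.18 SE, adjusted p = 0.0101).

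Several myelin and Schwann cell genes fell. In the list of 14 glial and neuronal genes 9 fell and 5 did not pass (median -2.46, 6 to 7 lower with a library left out). Myelin basic protein gene mbpa had 0.151 and 0 CPM at 4 dpa, against 10.1 and 12.3 CPM at 0 dpa, a ratio of 0 over 4 dpa of 167 with a 95% counting interval of 56.8 to 811. The gene mag, for a myelin-associated glycoprotein, was not counted at 4 dpa and had 1.67 and 1.75 CPM at 0 dpa, at least 25.8-fold lower (at least 11.3-fold without 4 dpa replicate 2). The proteolipid gene plp1b had 0.0502 and 0.117 CPM at 4 dpa, against 8.30 and 6.18 CPM at 0 dpa (log2 fold change -6.29 ± 0.59 SE, adjusted p = 9.6e-05; -6.97 without 4 dpa replicate 2). The factor egr2b, which drives myelin genes in Schwann cells and is also an immediate early gene, had 0.0502 and 0.156 CPM at 4 dpa, against 2.65 and 3.28 CPM at 0 dpa (log2 fold change -4.69 ± 0.62 SE, adjusted p = 0.00103; -5.68 without 4 dpa replicate 2). The second myelin basic protein gene, mbpb, had 42.9 and 41.3 CPM at 4 dpa, against 76.4 and 91.0 CPM at 0 dpa, and did not pass, and the neural crest and glial gene sox10 had 9.19 and 7.34 CPM at 4 dpa, against 40.2 and 38.1 CPM at 0 dpa (adjusted p = 0.0446, and between 0.122 and 0.242 with a library left out). Summed over the list, levels were 78.7 and 81.5 CPM at 4 dpa, against 222 and 251 CPM at 0 dpa. Not all members moved down: 11 of the 14 had a negative and 3 a positive log2 fold change, up to 3.51. EdgeR called 0 of them higher.

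Markers of other cells gave few calls. Of 13 macrophage, 10 neutrophil and 14 endothelial genes, 1, 1 and 2 rose (7.69%, 10% and 14.3%, beside 6.69% of all genes). DESeq2 called 1, 1 and 0 of them higher. The macrophage call was havcr1, a phosphatidylserine receptor gene, with 5.42 and 5.42 CPM at 4 dpa, against 1.16 and 0.511 CPM at 0 dpa (log2 fold change 2.64 ± 0.35 SE, adjusted p = 0.00227; 3.36 without 0 dpa replicate 1), while the antigen presentation gene cd74a had 534 and 642 CPM at 4 dpa, against 1239 and 1855 CPM at 0 dpa, and did not pass. The neutrophil call was mmp13a, which belongs to the protease list too. The endothelial calls were plvapb, of vessel diaphragms, with 93.0 and 112 CPM at 4 dpa, against 37.6 and 34.4 CPM at 0 dpa, and EGFL7, with 12.2 and 11.6 CPM at 4 dpa, against 4.31 and 4.65 CPM at 0 dpa. Neither call held throughout: the adjusted p of plvapb was 0.0837 without 0 dpa replicate 2 and 0.11 without 4 dpa replicate 2, and that of EGFL7 lay between 0.059 and 0.15 with a library left out. In melanophores trpm1b, a channel gene, had 2.91 and 3.36 CPM at 4 dpa, against 12.8 and 14.9 CPM at 0 dpa (log2 fold change -2.14 ± 0.23 SE, adjusted p = 0.00109). Alpha globin, hbaa1, one of 2 erythrocyte genes that rose among 7, had 65.3 and 106 CPM at 4 dpa, against 18.9 and 13.4 CPM at 0 dpa (log2 fold change 2.41 ± 0.44 SE, adjusted p = 0.0142; 0.117 without 0 dpa replicate 2 and 0.0975 without 4 dpa replicate 2). Skeletal muscle markers were at a few CPM in all libraries, with a sum over 6 genes of 7.08 and 7.69 CPM at 4 dpa, against 9.64 and 9.93 CPM at 0 dpa.

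Several circadian clock genes fell. Of 30 tested, 11 fell and 19 did not pass (median -1.30), and 5 to 14 fell with a library left out: 14 without 0 dpa replicate 1, 5 without 0 dpa replicate 2, 7 without 4 dpa replicate 1 and 7 without 4 dpa replicate 2. The feedback gene per3 had 45.7 and 43.4 CPM at 4 dpa, against 162 and 232 CPM at 0 dpa (log2 fold change -2.15 ± 0.20 SE, adjusted p = 0.000538), and bhlhe40, a repressor in the loop, had 67.1 and 87.5 CPM at 4 dpa, against 261 and 424 CPM at 0 dpa (log2 fold change -2.15 ± 0.24 SE, adjusted p = 0.00125). The activator npas2 had 1.51 and 1.91 CPM at 4 dpa, against 6.72 and 9.76 CPM at 0 dpa (log2 fold change -2.25 ± 0.26 SE, adjusted p = 0.00153), on the same side as the repressors. The times of day at which fins were collected are not given in the sources used here, and their part in these values was not tested.

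Immediate early genes, which respond within minutes to many stimuli, varied between the 0 dpa libraries. The summed level of 19 immediate early genes was 1995 and 2033 CPM at 4 dpa, against 1223 and 3381 CPM at 0 dpa, so that the 0 dpa libraries lay on both sides of the 4 dpa libraries. One example is klf2a, with 96.5 and 192 CPM at 4 dpa, against 70.0 and 532 CPM at 0 dpa. Apart from egr2b, the list gave no call.

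Set beside 1 dpa, the genes that changed at 4 dpa had different courses. The 1 dpa and 4 dpa changes share the 0 dpa libraries, so they are given side by side and not correlated. Cyclin B1, ccnb1, had 3.66 and 2.0 CPM at 0 dpa, 26.3 and 24.8 CPM at 1 dpa and 42.8 and 49.1 CPM at 4 dpa, with 1 dpa between the other times. The bone gene ogn had 27.4 and 28.5 CPM at 0 dpa, 6.74 and 5.60 CPM at 1 dpa and 332 and 325 CPM at 4 dpa, with 1 dpa below both other times, and col10a1a had 2495 and 2699 CPM at 0 dpa, 29.6 and 43.3 CPM at 1 dpa and 23337 and 16209 CPM at 4 dpa. The median log2 fold change of bone matrix and mineral genes was -1.92 at 1 dpa and 1.61 at 4 dpa. For appendage patterning genes the medians were -1.14 and 1.56, and for cholesterol enzymes -4.15 and -4.12. Keratin krt94 had 1099 and 1845 CPM at 0 dpa, 17839.5 and 21216 CPM at 1 dpa and 12283 and 11181 CPM at 4 dpa, highest at 1 dpa. Hemidesmosome gene col17a1a had 1176 and 1703 CPM at 0 dpa, 72.7 and 94.8 CPM at 1 dpa and 111 and 89.6 CPM at 4 dpa, lower at both times after amputation. Among the largest increases, ntrnl2 had 85.8 and 46.7 CPM at 1 dpa, against 5.82 and 11.5 CPM at 4 dpa. Levels of jac4 were 93.4 and 55.9 CPM at 1 dpa, against 9.74 and 15.3 CPM at 4 dpa. At 1 dpa sb:cb1058, cxl34c and ggt1a also lay above 4 dpa, and CU855711.2 overlapped. By contrast and1, and2, si:dkey-22i16.3, frem3, slc13a5b and TGM1 were lower at 1 than at 4 dpa. No test of 4 against 1 dpa was run here.

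**Figure D4:**
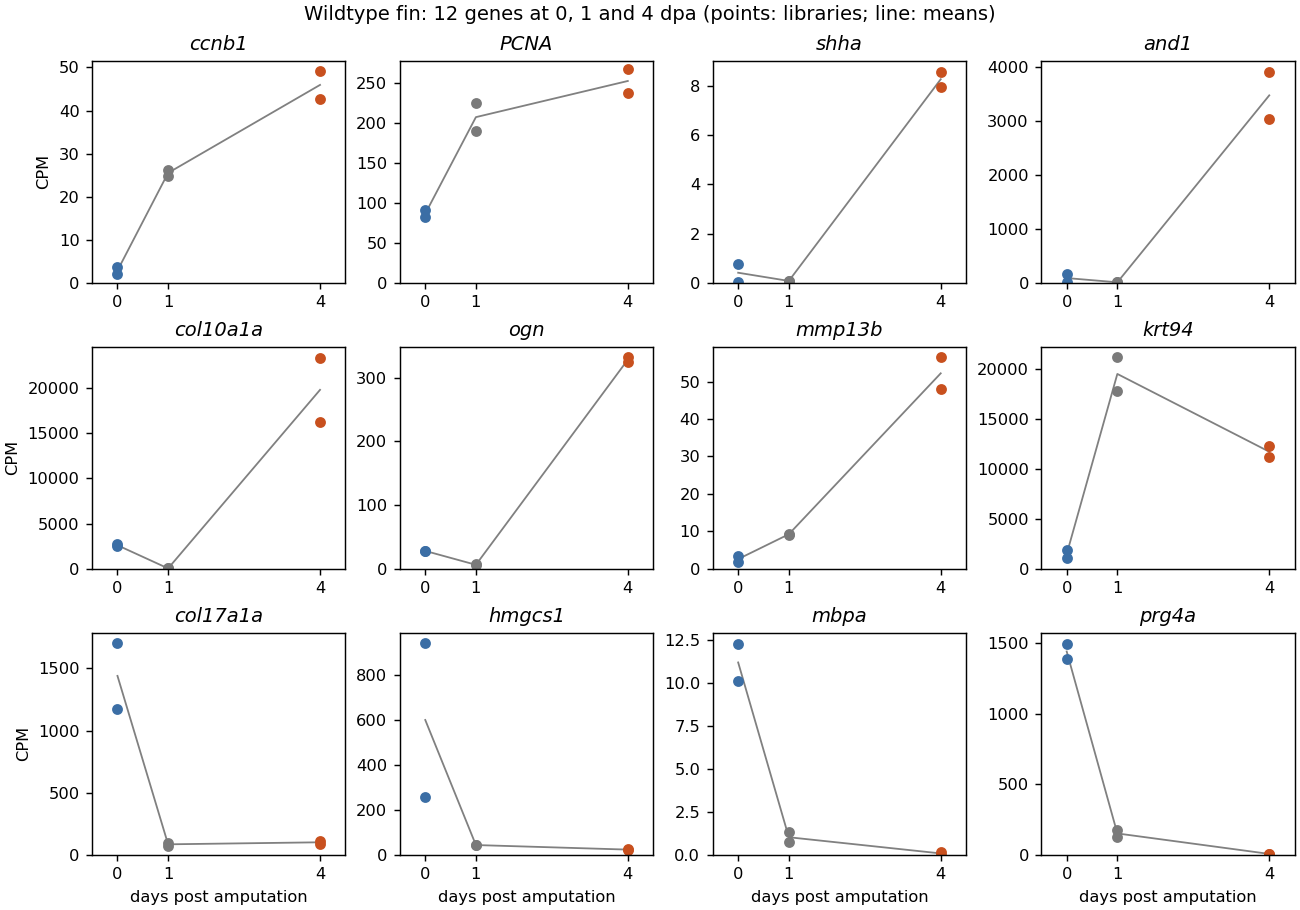
Levels of 12 genes in wildtype fins at 0, 1 and 4 dpa (x axis, days), in CPM on linear axes from 0, with points for the 2 libraries of each time and a line through the means. The genes ogn, col10a1a, and1 and shha are lowest at 1 dpa or close to it and high at 4 dpa, whereas col17a1a, hmgcs1, mbpa and prg4a are low at both times after amputation.

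The change in wildtype fins was also set against that in fosl1a KO fins. The gene fosl1a itself had 2.31 and 3.40 CPM at 4 dpa in wildtype fins, against 2.24 and 2.98 CPM in KO fins. At 0 dpa it had 2.71 and 3.96 CPM in wildtype fins, against 11.1 and 9.20 CPM in KO fins. Its transcripts were thus counted in KO libraries, and reads per gene do not check the genotype label. The change differed between genotypes in 3720 of 20157 genes (18.5%, edgeR's test of the interaction, false discovery rate 0.05), with 2043 differences positive (wildtype minus KO) and 1677 negative. Scaled by library totals alone, 746 were positive and 1022 negative, and the median difference over all genes was 0.22, against 0.08 in the scaling used. Replicates of KO fins at 0 dpa had a lower correlation (0.942) than those of wildtype fins at 0 dpa (0.980). The number of calls was not stable. It was 441 when only the 8 libraries of these groups were fitted, and with a library left out it lay between 79 (without wildtype 4 dpa replicate 2) and 7499 (without KO 0 dpa replicate 2). The counts were 80 without KO 4 dpa replicate 1, 400 without wildtype 0 dpa replicate 2, 803 without wildtype 4 dpa replicate 1 and 2379 without KO 0 dpa replicate 1. Of the 2313 genes called in wildtype fins, 564 (24.4%) were among the 3720. The difference holds the same wildtype change by which those genes were picked, so this share cannot be read against that of all genes.

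The largest positive differences were in genes whose KO level was high at 0 dpa. The kinase gene sik1 had, at 4 dpa, 26.2 and 53.3 CPM in wildtype fins, against 20 and 22.8 CPM in KO fins. At 0 dpa it had 35.1 and 75.9 CPM in wildtype fins, against 363 and 453 CPM in KO fins. The difference in log2 fold change (wildtype minus KO) was 3.78 ± 0.77 (SE, adjusted p = 0.0147). The KO libraries stood above the wildtype libraries at 0 dpa and close to or below them at 4 dpa. The shear-responsive factor gene klf2a, with 70.0 and 532 CPM in wildtype fins, against 1595 and 2976 CPM in KO fins at 0 dpa, had a difference of 3.89 ± 0.98 (SE, adjusted p = 0.0246). Neither gene was called in wildtype fins. The clone-named genes si:dkey-242g16.2 and si:ch73-141c7.1 had differences of 4.99 and 3.97, also with a high KO level at 0 dpa, and stayed past the threshold with any 1 library left out. Those of sik1 and klf2a did not. Without wildtype 4 dpa replicate 2 their adjusted p was 0.0659 and 0.0937, and without KO 4 dpa replicate 1 it was 0.079 and 0.107. For klf2a it was 0.0583 without KO 4 dpa replicate 2, and its difference was 3.02 without wildtype 0 dpa replicate 1 and 5.97 without wildtype 0 dpa replicate 2.

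The largest negative differences were in genes whose level in wildtype 0 dpa replicate 1 was above that of the other 0 dpa libraries. For and2 the levels at 4 dpa were 976 and 1168 CPM in wildtype fins, against 1073 and 944 CPM in KO fins. At 0 dpa they were 37.2 and 0.469 CPM in wildtype fins, against 0.315 and 0.0456 CPM in KO fins. The difference was -6.86 ± 2.03 (SE, adjusted p = 0.04). The difference of si:dkey-22i16.3 was -6.99 ± 2.1 (SE, adjusted p = 0.0422). Those of shha and lepb were -7.34 ± 1.98 (SE, adjusted p = 0.0326) and -7.32 ± 1.93 (SE, adjusted p = 0.0305), and since neither gene had a count in the KO libraries at 0 dpa, these fitted values depend on the prior count. With only the 8 libraries of these groups fitted, none of the 4 genes was past the threshold (edgeR's interaction test, adjusted p from 0.0652 to 0.0771). Without wildtype 0 dpa replicate 1 the differences of and2, shha, lepb and si:dkey-22i16.3 were -1.58, -4.10, -5.22 and -0.72, with adjusted p of 0.287, 0.225, 0.0361 and 0.682. None of the 4 was past the threshold without wildtype 4 dpa replicate 1 or 2, or without KO 4 dpa replicate 1 or 2 (edgeR, adjusted p from 0.0543 to 0.143).

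Among the lists, the difference test, read against 18.5% of all genes, called 4 of 33 mitosis genes (all negative), 12 of 37 matrix genes (4 positive, 8 negative) and 6 of 24 bone matrix genes (all positive). It also called 3 of 20 cholesterol enzymes and 3 of 14 glial and neuronal genes, all negative. The median log2 fold change of the cholesterol enzymes was -4.12 in wildtype and -2.04 in KO fins, and that of mitosis genes 3.02 and 3.28. The gap of the enzymes rested on single 0 dpa libraries. Their median difference was -1.08 in the full fit, but -0.03 without wildtype 0 dpa replicate 1. It was -0.31 without KO 0 dpa replicate 2 and -2.91 without KO 0 dpa replicate 1. The counts of calls in these lists were no more stable than the total. Without KO 0 dpa replicate 1, 13 cholesterol enzymes differed. Without wildtype 4 dpa replicate 2 edgeR called 0 of the matrix genes, 0 of the enzymes and 0 of the glial and neuronal genes, with 15, 4 and 4 at an unadjusted p below 0.05. Without KO 4 dpa replicate 1 these 3 lists had 0 calls too, with 15, 4 and 3, and the bone matrix list had 0, with 6. Without wildtype 0 dpa replicate 1, 6 mitosis genes differed positively and 4 negatively.

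Whether whole tissue and sorted cells gave the same change was asked with the sp7- cells, the cells of the fin without EGFP. Sorted fins had been dissociated with enzymes, with TrypLE and then Liberase DL at 0 dpa but TrypLE alone at 4 dpa. The change in sp7- cells over time therefore also holds the change of enzymes. EGFP-positive cells had been removed, and the fish were of another line. Handling, cell makeup, strain and experiment cannot be told apart in this comparison. The change differed in 4610 of 21066 genes (21.9%, edgeR's interaction test over all 20 libraries), and in 677 (29.3%) of the 2313 genes called in wildtype fins. Those genes were picked by a wildtype change that the difference also holds, so the shares cannot be read against each other. Over all genes 2663 differences were positive (wildtype fins minus sp7- cells) and 1947 negative, but scaled by library totals alone 681 were positive and 4099 negative, a scaling that moved the median difference to -0.51, against 0.07 in the scaling used. With only the 8 libraries of the groups compared, the split was 2302 and 3269. The number of differing genes was 2844 without wildtype 0 dpa replicate 2, 3014 without wildtype 4 dpa replicate 2, 3044 without sp7- 0 dpa replicate 2 and 2942 without sp7- 4 dpa replicate 1. All levels in the sentences that follow were scaled over both experiments together. Counts of list members there are to be read against the 21.9% of all genes.

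Bone matrix genes differed in both directions. Of 24, 7 had a negative and 5 a positive difference, beside 11 and 2 when scaled by library totals alone and 12 and 6 with only the 8 libraries of the groups compared. With a library left out the fewest were 4 and 3, without wildtype 4 dpa replicate 2, sp7- 0 dpa replicate 2 or sp7- 4 dpa replicate 2. The gene scpp5 had, at 4 dpa, 38.7 and 45.9 CPM in wildtype fins, against 79.1 and 117 CPM in sp7- cells. At 0 dpa it had 5.57 and 0 CPM in wildtype fins, against 0 and 0 CPM in sp7- cells. The difference in log2 fold change (wildtype fins minus sp7- cells) was -10.64 ± 2.46 (SE, adjusted p = 0.00636), and -1.21 without wildtype 0 dpa replicate 1 (adjusted p = 1). With 0 counts in sp7- cells at 0 dpa, the fitted value depends on the prior count. Other bone genes with a larger change in sp7- cells were panx3, ifitm5 and col10a1a, with differences of -3.31, -3.02 and -2.86. The decoy receptor gene tnfrsf11b (osteoprotegerin) lay the other way, with log2 fold changes of -0.30 in unsorted fins and -5.82 in sp7- cells (difference 5.53).

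Many mitosis genes had the larger increase in unsorted fins. The difference was called in 17 of 33 members, each positive, and the median log2 fold changes were 3.02 in unsorted fins and 1.83 in sp7- cells. The gene cdk1 had log2 fold changes of 3.81 and 1.64 (difference 2.17 ± 0.61, SE, adjusted p = 0.017). Scaled by library totals alone, 1 of the 33 was called, so the number rested on the scaling, and it was 6 without wildtype 0 dpa replicate 2, 10 without wildtype 4 dpa replicate 2 and 4 without sp7- 0 dpa replicate 2. Epithelial junction genes differed in 19 of 27, 18 of them positive, or in 9 and 1 by library totals. Their median was -0.69 in unsorted fins and -1.88 in sp7- cells. For cldn7b the difference was 2.69 ± 0.39 (SE, adjusted p = 0.000211). The only negative one, tjp1a, had a difference of -0.91.

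Of the glial and neuronal genes 4 of 14 differed, all negative, a share near the 21.9% of all genes. Among them were mag (-7.54) and mbpa (-5.49), which had log2 fold changes of -0.69 and -1.78 in sp7- cells. These fitted values depend on the prior count, since mag had no count in unsorted fins at 4 dpa. Cholesterol enzymes had medians of -4.12 in unsorted fins and -1.73 in sp7- cells, with 3 of 20 called different, below the share of all genes. That count was 15 with no filter on low counts, 9 by library totals, 11 with only the 8 libraries compared and 3 with DESeq2. The median difference of the enzymes was -1.69 in the full fit. It was -0.55 without wildtype 0 dpa replicate 1 and -2.34 without wildtype 0 dpa replicate 2. Mucin gene muc5.2, of goblet cells, was not counted in sp7- cells at 4 dpa, so its fitted difference depends on the prior count. At 0 dpa the levels were 16.6 and 15.4 CPM in wildtype fins, against 1.90 and 2.0 CPM in sp7- cells, and the difference was 7.54 ± 1.23 (SE, adjusted p = 0.000546). The hairy-related gene her2 had, at 4 dpa, 0.824 and 0.641 CPM in wildtype fins, against 11.9 and 7.52 CPM in sp7- cells. At 0 dpa it had 0.774 and 0.472 CPM in wildtype fins, against 0 and 0.0384 CPM in sp7- cells, and the difference was -8.36 ± 1.00 (SE, adjusted p = 5.84e-05). With next to no counts in sp7- cells at 0 dpa, the size of that difference is poorly bounded.

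**Figure D5:**
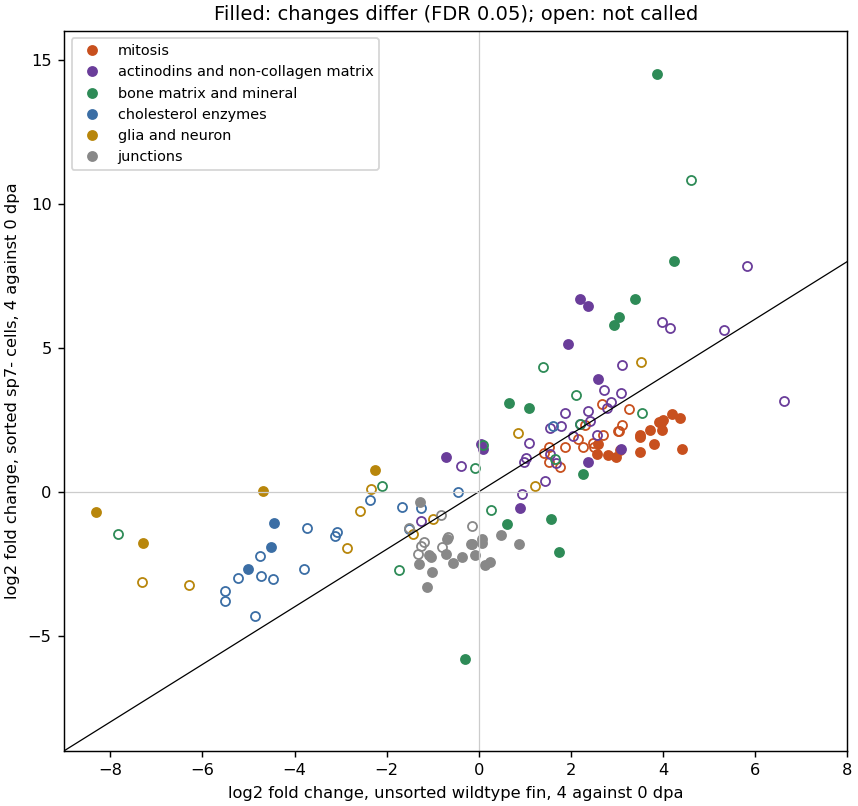
Log2 fold change at 4 against 0 dpa in unsorted wildtype fins (x axis) and in sorted sp7- cells (y axis) for members of 6 gene lists, with filled points where the changes differed (edgeR's interaction test, false discovery rate 0.05) and a line of equal change. Most mitosis genes lie below the line and the bone gene scpp5 far above it (3.86 in unsorted fins and a fitted 14.51 in sp7- cells, which had no count of it at 0 dpa).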

How the data were processed

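Total RNA with polyA selection was sequenced from caudal fins. The deposited values are raw counts of read pairs per gene, which the authors made with STAR 2.5.2a (uniquely mapped reads, zebrafish build GRCz10, Ensembl transcripts) and featureCounts 1.5.0, without strand and with a pair counted for every gene it overlapped. Counts of overlapping, antisense and near-identical genes are therefore uncertain. The submitters' processing notes also name bcl2fastq. Totals of the 4 libraries at 4 and 0 dpa lay between 20817289 and 31507208 counts, and intervals and floors cover counting error only.

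The tables held gene IDs alone. Symbols were matched to 26613 of 32105 IDs, 5280 from gene tables of the study and 21333 from an Ensembl name table alone. Of 835 entries in 37 gene lists, 659 matched a gene. Members and lists were chosen with earlier results of these data known.

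All 12 unsorted libraries were fitted in edgeR 4.0.16 (R 4.3.3, limma 3.58.1) with TMM scaling and its default filter, which left 20157 genes. The change at 4 dpa was tested against 2-fold (glmTreat), and differences between changes against none (quasi-likelihood F-test), with Benjamini-Hochberg adjustment over all genes at 0.05. Standard errors are the log2 fold change over the root of F. CPM are TMM-scaled, over the 12 libraries or, for sp7- cells, over all 20. A gene with 0 counts in a group was compared with a floor of 3 counts over that group. A gene with 1 to 3 counts was given a ratio with a 95% counting interval.

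Genes were named by rule: the 12 largest called increases and decreases without overlap at a mean of at least 5 CPM, the 3 most counted and the most changed members of each list, the 5 most counted genes of each time, those that the study names, and the 4 largest differences in each direction. Some genes that this rule takes are not reported here. Further list members were named after their values were seen. Alternatives were DESeq2 1.42.0, other scalings, filters, thresholds and sets of libraries, a replicate block, and each library left out. The fit of the 6 wildtype libraries alone was added after seeing the data. Simulated counts held 200 well-counted genes changed by a single large fold, with the same spread set for all genes. The test of the wildtype change called 200 of them, which does not check calls of small changes or of genes with few counts. Tables were written with Python 3.11.15. Columns of sp7+ cells were in the fit over all 20 libraries, where they entered the filter, the scaling and the estimate of spread, but were not compared.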

Additional observations from a re-analysis of the deposited data

Results flagged for a closer look

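The change at 4 against 0 dpa differed between groups in 16 genes taken by size, with values as differences in log2 fold change. Between wildtype and fosl1a KO fins (wildtype minus KO), the largest positive differences were in si:dkey-242g16.2 (4.99), si:ch73-141c7.1 (3.97), klf2a (3.89) and sik1 (3.78). For si:dkey-242g16.2 the 0 dpa levels were 37.3 and 81.6 CPM in wildtype fins, against 407 and 478 CPM in KO fins, and the 4 dpa levels 29.3 and 51.5 CPM in wildtype fins, against 7.23 and 11.7 CPM in KO fins. The largest negative differences were in shha (-7.34), lepb (-7.32), si:dkey-22i16.3 (-6.99) and and2 (-6.86).

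Between unsorted wildtype fins and sp7- cells (fins minus cells), the largest positive differences were in ntrnl2 (10.03), muc5.2 (7.54), the urea transporter gene slc14a2 (7.21) and jac4 (6.49). For slc14a2 the levels at 4 dpa were 1.24 and 0.670 CPM in wildtype fins, against 0.265 and 0.702 CPM in sp7- cells, and at 0 dpa 0.265 and 0.157 CPM in wildtype fins, against 6.51 and 26.9 CPM in sp7- cells. The largest negative ones were in scpp5 (-10.64), zgc:172244 (-8.66), her2 (-8.36) and the aquaporin gene AQP3 (-6.77). The levels of AQP3 at 4 dpa were 1.80 and 1.17 CPM in wildtype fins, against 0.0241 and 0.0842 CPM in sp7- cells, and at 0 dpa 12.3 and 11.7 CPM in wildtype fins, against 0 and 0 CPM in sp7- cells. Its adjusted p in edgeR's interaction test was 0.0124, and it was 0.0551 without sp7- 0 dpa replicate 2 and 0.143 without sp7- 4 dpa replicate 2. Where a gene had no count in a group (ntrnl2, muc5.2, scpp5, zgc:172244, AQP3, shha, lepb) the fitted difference depends on the prior count.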

How the results depend on the processing

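At 4 against 0 dpa in wildtype fins, 2313 genes were called (1349 higher, 964 lower). DESeq2 against the same 2-fold null called 1299 (833 and 466), a false discovery rate of 0.01 left 1294 (849 and 445), and a test against no change followed by a 2-fold filter, the rule the study describes, called 5961 with edgeR (2946 and 3015) and 5836 with DESeq2 (2882 and 2954). With 1 library left out, 1411 to 1986 were called (910 to 1133 higher, 421 to 853 lower). The count was 1916 with library totals, 2306 with DESeq2's size factors, 2367 without a filter, 2212 with a minimum of 1 CPM, 2592 from the 4 libraries alone and 2705 from the 6 wildtype libraries. No gene called in the full fit was called in the opposite direction under these alternatives. Of 143 called genes named in the text, DESeq2 against 2-fold did not call 35, among them and2, si:dkey-22i16.3, shha, scpp5, scpp6, scpp7, sp7, bglap and krt15. With library totals 8 lost their call (EGFL7, HSPB8, WNT3A, etv5b, il7r, lck, plvapb and pvalb8), with only the 4 libraries EGFL7 and lck. Other named genes gained a call: col1a1a without a filter, and col1a1a and smc4 from the 4 libraries alone or the 6 wildtype libraries. DESeq2's test against no change with a 2-fold filter added COL4A1, MMP2, cd74a, cldne, col1a1a, krt5, mmp9, muc5.2, runx2b, smc4 and tjp1a. The log2 fold changes of some genes that were not called took both signs with a library left out: cldnb had -0.32 to 0.048, col17a1b -0.43 to 0.052, dspa -0.37 to 0.14, fosl1a -0.50 to 0.12 and klf2a -1.92 to 1.08. Why these counts moved was not tested, except that a stricter threshold calls fewer genes by its construction.

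The difference between wildtype and KO fins was called in 3720 genes (2043 positive, 1677 negative), in 1768 with library totals (746 and 1022), in 441 with only the 8 libraries compared (252 and 189), in 142 at a false discovery rate of 0.01 (96 and 46) and in 79 to 7499 with 1 library left out (54 to 3517 and 23 to 3982). The difference between wildtype fins and sp7- cells was called in 4610 genes (2663 and 1947), in 2330 at 0.01 (1385 and 945) and in 2844 to 4165 with 1 library left out (1663 to 2576 and 1181 to 1703). With library totals the split was 681 and 4099, and with only the 8 libraries compared 3269 were negative. The replicate numbers are not stated to pair libraries, and with 2 pairs the deviations of same-numbered wildtype libraries at 0 and 4 dpa had a correlation of 0.085 across genes. With a replicate block the counts were 2284 for the wildtype change, 3786 for the difference from KO fins and 4522 for that from sp7- cells, and among the named genes TYR, col11a1b and si:dkey-22i16.3 lost their calls. With 2 libraries a group and counts near 0 in one of them, the size of a change is poorly bounded.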

Other observations

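Further lists of cell types and stress genes gave a few calls each. Among 14 heat shock genes 2 rose and 1 fell (median 0.22). The inducible chaperone gene hsp70l had 0.502 and 0.546 CPM at 4 dpa, against 2.62 and 4.13 CPM at 0 dpa (log2 fold change -2.66 ± 0.38 SE, adjusted p = 0.00368), with both 4 dpa libraries below both 0 dpa libraries. Besides serpinh1b, the small heat shock gene HSPB8 rose to 17.6 and 14.6 CPM at 4 dpa, against 6.31 and 4.31 CPM at 0 dpa, a call lost with an adjusted p of 0.205 without 0 dpa replicate 2 and 0.147 without 4 dpa replicate 1. Among 14 cytokine genes, the chemokine gene ccl25b had 35.4 and 34.3 CPM at 4 dpa, against 189 and 122 CPM at 0 dpa (log2 fold change -2.16 ± 0.24 SE, adjusted p = 0.00131), and its call held with any 1 library left out. The chemokine gene ccl34b.1 had 2.91 and 4.18 CPM at 4 dpa, against 0.833 and 0.682 CPM at 0 dpa, and its adjusted p was 0.0839 without 0 dpa replicate 1, 0.116 without 0 dpa replicate 2 and 0.134 without 4 dpa replicate 2. Of 13 lymphocyte genes 2 rose, tcf7 and RAG2, and 2 fell. The T cell kinase gene lck had 1.05 and 1.37 CPM at 4 dpa, against 4.43 and 3.24 CPM at 0 dpa, and il7r, for a lymphocyte cytokine receptor, 0.803 and 1.83 CPM at 4 dpa, against 5.38 and 5.03 CPM at 0 dpa. For lck the adjusted p was 0.159 without 0 dpa replicate 1, 0.223 without 4 dpa replicate 1 and 0.0795 without 4 dpa replicate 2, and for il7r it was 0.0629 without 0 dpa replicate 1, 0.0719 without 0 dpa replicate 2 and 0.214 without 4 dpa replicate 1. For RAG2 the 0 dpa libraries together held 1 count, and its adjusted p was 0.0515 to 0.096 with a library left out.

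Most pigment cell genes were not called, and their signs were mixed. Log2 fold changes were positive in 4 of 8 melanophore genes (median -0.47) and 5 of 15 xanthophore and iridophore genes (median -0.41). The shares called lower were 25% and 6.67%, beside 4.78% of all genes. Of 8 melanophore genes 2 fell, trpm1b and the tyrosinase gene TYR, with 2.01 and 1.83 CPM at 4 dpa, against 7.53 and 5.41 CPM at 0 dpa for TYR, whose adjusted p was 0.0531 to 0.21 with a library left out. Of 15 xanthophore and iridophore genes 1 fell, SOX5, with 2.51 and 2.38 CPM at 4 dpa, against 10.4 and 8.95 CPM at 0 dpa (log2 fold change -1.98 ± 0.21 SE, adjusted p = 0.00171). Fatty acid binding protein genes went both ways. In the list of 8 adipocyte and lipid genes fabp11a had 51.3 and 57.4 CPM at 4 dpa, against 12.8 and 13.6 CPM at 0 dpa (log2 fold change 2.04 ± 0.19 SE, adjusted p = 0.000576), while fabp1b.2 had 1.51 and 1.44 CPM at 4 dpa, against 18.5 and 14.4 CPM at 0 dpa, with an adjusted p of 0.0117, but 0.0736 without 4 dpa replicate 1 and 0.0899 without 4 dpa replicate 2. The apolipoprotein D gene apodb had 12 and 11.9 CPM at 4 dpa, against 37.2 and 39.0 CPM at 0 dpa (log2 fold change -1.67 ± 0.15 SE, adjusted p = 0.00206). Of 8 secretory genes 1 fell, pvalb8, with 3.36 and 3.16 CPM at 4 dpa, against 11.6 and 8.95 CPM at 0 dpa and an adjusted p of 0.125 without 0 dpa replicate 1, 0.097 without 4 dpa replicate 1 and 0.149 without 4 dpa replicate 2. Of 4 sensory genes 1 fell, the progenitor factor gene SOX2, with 2.71 and 1.76 CPM at 4 dpa, against 9.73 and 7.12 CPM at 0 dpa and an adjusted p of 0.0645 to 0.288 with a library left out. Of 6 muscle genes tnnt3b and mybphb rose and ckma fell. The troponin gene tnnt3b had 4.02 and 3.47 CPM at 4 dpa, against 0.506 and 0.767 CPM at 0 dpa (log2 fold change 2.58 ± 0.28 SE, adjusted p = 0.000747), while the adjusted p of mybphb was 0.0765 to 0.174 and that of ckma 0.0951 to 0.21 with a library left out. The erythrocyte carbonic anhydrase gene cahz had 6.17 and 9.05 CPM at 4 dpa, against 2.26 and 0.810 CPM at 0 dpa, with a log2 fold change of 2.26 (3.19 without 0 dpa replicate 1) and an adjusted p of 0.0137 (0.0794 without 0 dpa replicate 2 and 0.0959 without 4 dpa replicate 2).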
